A study of Homo sapiens with 18 samples.

Results

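The genes described here are the cadherins CDH1 and CDH2, the epithelial surface proteins EPCAM and CLDN6, the intermediate filament protein VIM, and the transcription factors SNAI1, SNAI2 and ZEB2, 8 genes chosen by name as readouts of a cadherin switch and of an epithelial to mesenchymal transition (EMT). Of these, 6 have a value in the deposited table of 10975 genes for the first WT series, and 1, CDH2, has a value in the table of 497 genes for the SP5 mutant experiment. SNAI2 and ZEB2 are listed in neither table, under their current or older symbols, and have no value here. The labels give all cells as H1, an established human embryonic stem cell line, here grown in a defined medium on Matrigel. RNA-Seq followed a first WT series and a second one, WT Rep. 2, through 0, 12, 24 and 48 h with 1 nM recombinant Wnt3a, and the cells of the 0 h libraries received the buffer in which Wnt3a is stored. The same times were sampled in dZF1 and dZF2, H1 lines in which the segment of SP5 that encodes the zinc fingers was removed from both alleles by CRISPR. Each of these lines is 1 clone grown from a single cell, so a clone's own traits and the loss of SP5 cannot be told apart. SP5 ChIP-Seq peaks were deposited as a pair of lists.

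Cadherins are transmembrane proteins that hold neighbouring cells together through calcium-dependent contacts, and catenins tie their tails to actin. E-cadherin, encoded by CDH1, is typical of epithelia and of pluripotent stem cells, whereas N-cadherin, encoded by CDH2, is typical of mesenchymal and neural cells. During gastrulation, cells that pass through the primitive streak lower E-cadherin and raise N-cadherin, and repressors of the SNAI, ZEB and TWIST families are known for silencing CDH1 in this step. β-catenin serves both at cadherin junctions and in the nucleus, where it carries the WNT signal to genes such as SP5, a zinc finger factor of the SP/KLF family.

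There was 1 library for each series and time, so changes within a series have no replicate check and no p-value is given. Values of the first WT series are RPKM, reads per kilobase of transcript scaled to the mapped reads of the library, a unit in which genes can be compared with each other. Changes are log2 differences from 0 h after 1 was added to each RPKM, and a gene is called changed at 2-fold or more. Read counts are not in the tables, so the depth behind each value is unknown. The 12 pluripotency markers are all listed, and their summed level went from 3570 RPKM at 0 h to 2512 RPKM at 48 h, with NANOG at only 3.3 RPKM at 0 h. The 8 primitive streak markers, 2 of them listed at 0 before treatment, summed to 7.7 RPKM at 0 h, 671.8 RPKM at 24 h and 449.7 RPKM at 48 h, and the 8 definitive endoderm markers to 6 RPKM at 0 h and 939.3 RPKM at 48 h. All 16 of these streak and endoderm markers were at least 2-fold higher at 48 h. Of the markers of other cells, 3 of 8 for mesoderm, 2 of 8 for neural cells, 4 of 8 for fibroblasts and 0 of 7 for trophoblast are listed. Among the listed mesoderm markers, 2 were at least 2-fold higher at 48 h, both from low levels. MESP1 went from 0.5 to 4.8 RPKM and TBX6 from 1.1 to 4.6 RPKM, while KDR was at 24.9 and 25.3 RPKM at 0 and 48 h. The summed fibroblast markers went from 218 to 125 RPKM, most of it THY1, with 195.7 RPKM at 0 h and 95.4 RPKM at 48 h. COL1A2 went from 13.8 to 24.1 RPKM, COL1A1 from 4.2 to 2.6 RPKM and PDGFRB from 4.6 to 3.3 RPKM. OTX2 and NES, the neural markers that are listed, summed to 200 RPKM at 0 h and 327 RPKM at 48 h. Both were already present at 0 h, at 49.4 and 151 RPKM, so this sum does not show neural cells. In such bulk samples a smaller number of cells of a type cannot be told apart from less RNA per cell.

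CDH2 was the member that changed. It stood at 16.7 RPKM at 0 h, 19.5 RPKM at 12 h, 44.2 RPKM at 24 h and 63.3 RPKM at 48 h. The level was nearly flat over the first 12 h and was higher at each later time. The log2 changes from 0 h were 0.21 at 12 h, 1.35 at 24 h and 1.86 at 48 h, the last being a 3.79-fold ratio of RPKM. The step between 12 and 24 h, 1.14, exceeded that between 24 and 48 h, 0.51. At 48 h the change of CDH2 was above that of 98.4% of all listed genes. CDH2 maps to chromosome 18, reverse strand, positions 25512843 to 25757910 in GRCh37, the build of the deposited coordinates.

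CDH1, which maps to chromosome 16, forward strand, positions 68771195 to 68869440, kept its level while CDH2 rose. It was at 68.6 RPKM at 0 h, 80.1 RPKM at 12 h, 75 RPKM at 24 h and 69.2 RPKM at 48 h. The 48 h library was within 0.6 RPKM of the 0 h library, a log2 change of 0.01, and the level at 12 h was the highest of the 4, with a log2 change of 0.22. No library of this series was thus below the 0 h level of CDH1. The rise of CDH2 over the same 48 h came to 46.6 RPKM. The ratio of CDH2 to CDH1 was 0.243 in the libraries of 0 and 12 h, 0.589 in that of 24 h and 0.915 in that of 48 h, so that CDH2 remained the lower of the pair at every time. On the log2 scale, with 1 added to each RPKM, the ratio went from -1.98 to -0.13.

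P-cadherin, encoded by CDH3, is the other classical cadherin that these cells held at a comparable level, with 50.4 RPKM at 0 h, 48.8 RPKM at 12 and 24 h and 42.7 RPKM at 48 h, a log2 change of -0.23. Together CDH1, CDH2 and CDH3 summed to 135.7 RPKM at 0 h and 175.2 RPKM at 48 h. Within this sum the share of CDH2 went from 12.3% to 36.1% and that of CDH1 from 50.6% to 39.5%. The fall in the share of CDH1 was therefore a matter of a larger sum, since its own level was 0.6 RPKM higher at 48 h.

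Among the epithelial surface members, CLDN6, a claudin of tight junctions in early embryonic epithelia, was the most abundant member at every time. Its RPKM was 501.4, 483.3, 474.7 and 539.1 at 0, 12, 24 and 48 h, and the log2 change at 48 h was 0.10. EPCAM, an epithelial adhesion molecule, was at 127, 112.5, 118.8 and 139.1 RPKM at these times, with a log2 change of 0.13 at 48 h. Both genes dipped below their 0 h level at 12 and 24 h and ended above it, and neither reached a log2 change of 0.2 in either direction. CLDN6 maps to chromosome 16, reverse strand, positions 3064713 to 3070072, and EPCAM to chromosome 2, forward strand, positions 47572297 to 47614740.

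VIM encodes vimentin, the intermediate filament of mesenchymal cells, and was already among the more abundant transcripts at 0 h, above 92.1% of listed genes. It was at 83.2 RPKM at 0 h, 84.8 RPKM at 12 h, 79.7 RPKM at 24 h and 142.6 RPKM at 48 h. The first 3 libraries lay within 5.1 RPKM of each other, and the last stood apart from them. The log2 change at 48 h was 0.77, a 1.71-fold ratio that missed the 2-fold threshold but was larger than that of 93.0% of listed genes. VIM maps to chromosome 10, forward strand, positions 17270240 to 17279592.

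SNAI1 encodes Snail, a zinc finger repressor of CDH1, and was the lowest of the listed members. It was at 8.7, 7.1, 10.2 and 11 RPKM over the 4 times. The log2 change was -0.26 at 12 h and 0.31 at 48 h, and the level at 48 h was 2.3 RPKM above that at 0 h. SNAI1 maps to chromosome 20, forward strand, positions 48599517 to 48605423. SNAI2, which encodes Slug, and ZEB2, a 2-handed zinc finger repressor, are not listed. The table holds genes whose highest RPKM is at least 4, so each was below this level in all 4 libraries or was removed before deposition.

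Of the 6 listed members, 0 changed at least 2-fold at 12 h, where 1.94% of all listed genes did. At 24 h the number was 1 of 6, against 3.97% of all genes, and at 48 h it was again 1 of 6, against 7.81%. CDH2 was that member at both times, and it was higher, as were 1.22%, 2.62% and 4.86% of all genes at 12, 24 and 48 h. No listed member was 2-fold lower at any time, against 0.72%, 1.35% and 2.95% of all genes. At 48 h, 4 of the 6 had a log2 change under 0.5 in either direction. In order of level the members at 0 h were CLDN6, EPCAM, VIM, CDH1, CDH2 and SNAI1. At 48 h VIM and EPCAM, with 142.6 and 139.1 RPKM, had changed places, a difference of 3.5 RPKM for which no replicate gives an error, and CDH1 and CDH2 lay 5.9 RPKM apart.

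**Figure D1:**
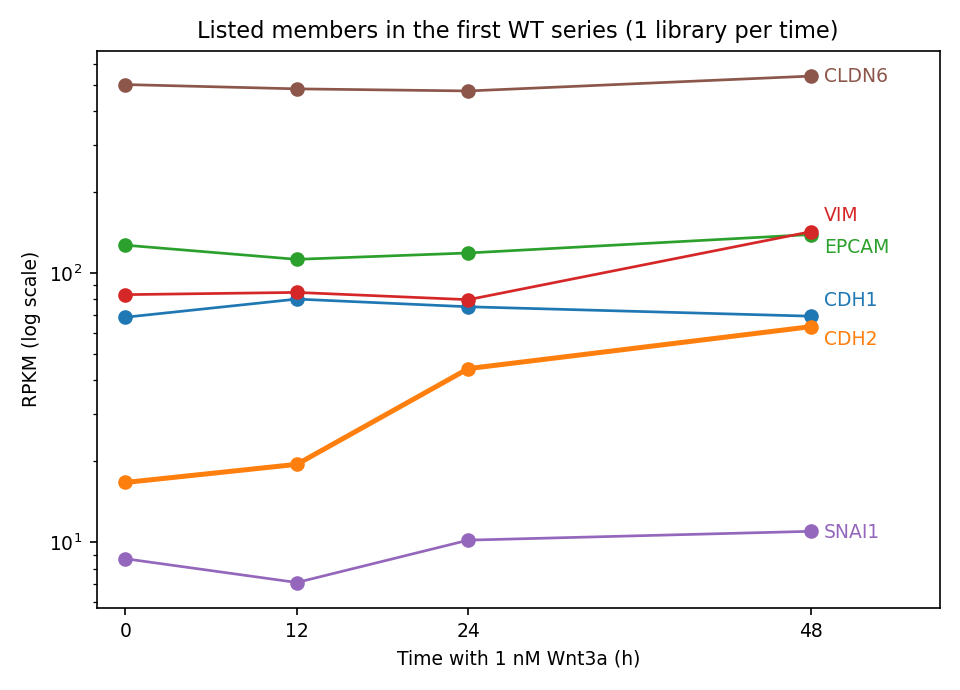
RPKM, on a log axis, of the 6 listed members in the first WT series at 0, 12, 24 and 48 h with 1 nM Wnt3a, with 1 library per point and no error bars. CDH2 (thick line) climbs from 16.7 to 63.3 RPKM towards CDH1, which ends at 69.2 RPKM, VIM leaves its early level at 48 h only, and the other members stay close to where they began.

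The members were read beside 6 lists of genes with related roles, 179 genes in all, of which 108 are listed. At 48 h, 20 of these 108 were at least 2-fold higher and 9 at least 2-fold lower, beside 4.86% and 2.95% of all 10975 genes. The lists describe the surroundings of the members and were not tested as sets. They were chosen with earlier results of these data known, so a share above that of all genes may come from the choice.

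Of 16 EMT transcription factors, 8 are listed. ZEB1, TWIST1, TWIST2, FOXC1, FOXC2 and PRRX1 are absent from the table together with SNAI2 and ZEB2. At 48 h 2 were higher, 1 was lower, and the median log2 change was -0.16, beside -0.00 over all listed genes. GSC, which encodes goosecoid, a homeobox factor of the organizer and the anterior primitive streak, was at 0.5, 7.3, 57.8 and 27.2 RPKM, highest at 24 h. KLF8 went from 5 RPKM at 0 h to 13.3 RPKM at 48 h, and the whole of this rise fell after 24 h, when it was at 4.7 RPKM. SNAI3, a relative of SNAI1, went from 12 to 5.2 RPKM. SNAI1 itself had the largest positive change after GSC and KLF8.

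Factors that maintain epithelia were listed for 7 of 14 genes, of which 1 was higher and 0 were lower at 48 h, with a median of -0.06. The 1 was KLF5, a factor of epithelial and pluripotent cells, which went from 2.3 to 11.1 RPKM. ESRP1, which directs epithelial splicing, went from 72.8 to 56.8 RPKM, a log2 change of -0.35. GRHL2, an activator of CDH1, went from 15.9 to 10.6 RPKM, a change of -0.54. Neither reached 2-fold.

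In the list of cadherins and catenins, 13 of 29 genes are listed, and CDH2 was the 1 that was at least 2-fold higher at 48 h. None was lower, and the median was 0.01. At 24 h CDH11, a mesenchymal cadherin, also passed, with 1.8 RPKM at 0 h, 5.3 RPKM at 24 h and 3.2 RPKM at 48 h. CTNNB1, which encodes β-catenin, went from 184.9 to 262.5 RPKM (log2 change 0.50), and CTNNA1, which joins it to actin, from 78.5 to 105.6 RPKM (0.42). CTNND1, which encodes p120 catenin, differed by 0.02 in the other direction. CDH2 thus stood alone in this list at 48 h, and CDH11 next to it had a log2 change of 0.58.

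CLDN6 was compared with 25 listed genes of 40 in the tight junction list, itself included, in which 1 was higher, 4 were lower and the median was -0.02. CLDN11 was the 1 that was higher, with 5.5, 9.4, 23.1 and 47.5 RPKM, a log2 change of 2.90. The 4 lower genes were also claudins. CLDN4 went from 38.5 to 15.9 RPKM, CLDN3 from 14.8 to 6.5 RPKM, CLDN10 from 12.6 to 5.8 RPKM and CLDN20 from 5 to 0.5 RPKM. CLDN6 at 539.1 RPKM remained more abundant than any of them. The scaffold TJP1, which encodes ZO-1, was at 64.7 and 63.9 RPKM.

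EPCAM belongs to the list of desmosome, keratin and other epithelial genes, of which 24 of 33 are listed, with 4 higher, 2 lower and a median of 0.12. Those that were higher are typical of epithelia. KRT8 and KRT19, intermediate filament proteins of simple epithelia, went from 218.1 to 518.3 RPKM and from 66.1 to 201.7 RPKM, PERP, a protein of desmosomes, from 24.3 to 85.3 RPKM, and DSP, which links desmosomes to keratin, from 28.1 to 66.8 RPKM. Those that were lower were CD24, a surface glycoprotein, from 1493.7 to 524.4 RPKM, and ITGA6, an integrin that binds laminin, from 51.6 to 22.5 RPKM. VIM was set against the keratins KRT8, KRT18 and KRT19, a comparison chosen after the values were seen. Vimentin made up 12.8% of the sum of these 4 transcripts at 0 h and 11.4% at 48 h, while the sum went from 650 to 1252 RPKM.

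VIM belongs to the mesenchymal list of cytoskeleton, matrix and migration genes, of which 31 of 47 are listed. At 48 h 11 were higher and 2 were lower, where 4.86% and 2.95% of all genes were, and the median log2 change was 0.33, beside -0.00 over all genes. At 24 h 2 of the 31 had passed 2-fold, so most of these genes passed it after 24 h, the interval in which VIM rose. TNC, a matrix glycoprotein, went from 2.4 to 32 RPKM, FN1, which encodes fibronectin, from 16.4 to 99.8 RPKM, and TAGLN, an actin-binding protein of smooth muscle, from 42.3 to 186.4 RPKM. COL6A1 and COL6A2, chains of collagen VI, and ITGA5, the integrin chain that binds fibronectin, were higher as well, with log2 changes of 2.16, 1.61 and 2.06. CNN1 and THY1 were the 2 lower genes, with log2 changes of -1.26 and -1.03. The change of 0.77 for VIM was above the median of this list.

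**Figure D2:**
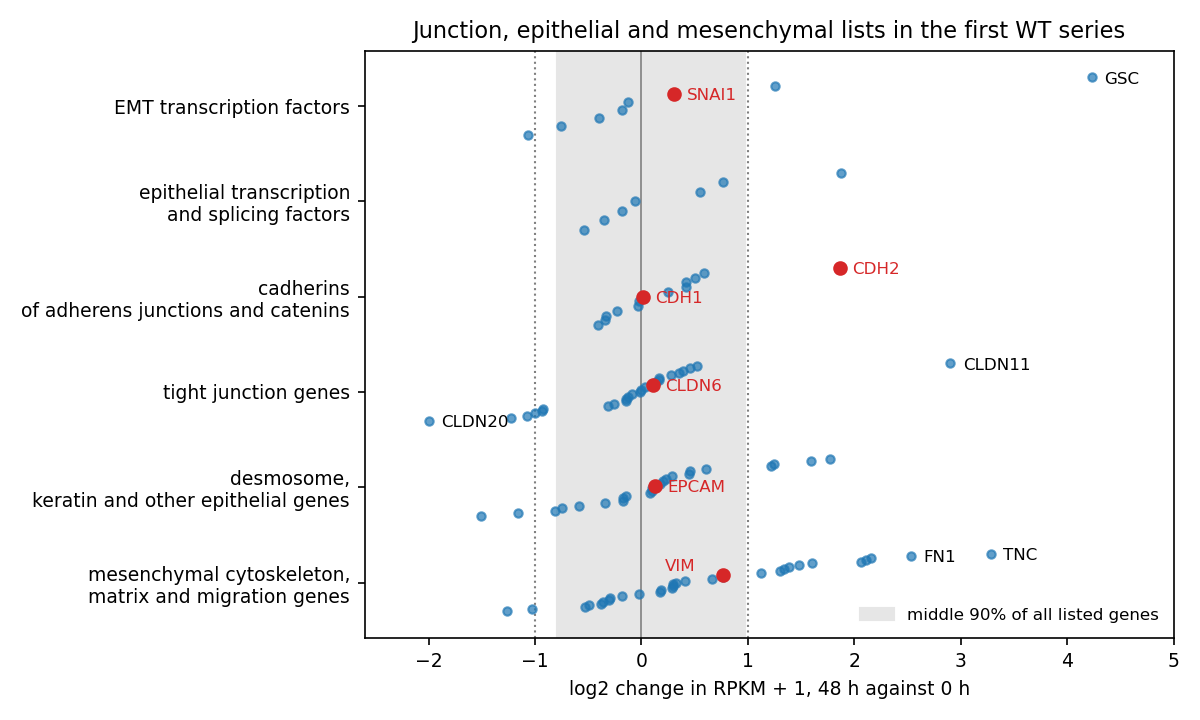
Log2 change of RPKM + 1 between 0 and 48 h in the first WT series for the 108 listed genes of the 6 lists, 1 point a gene, with members in red. Dotted lines mark 2-fold, and the grey band holds the middle 90% of all 10975 genes. CDH2 lies outside the band with a change of 1.86, and the other 5 members lie inside it.

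Genes with a course like that of CDH2 in the first WT series were sought by the mean absolute difference of log2 changes at the 3 later times, among genes whose highest RPKM was at least 20. Among the closest were HEBP2 (25.7, 29, 59 and 82.1 RPKM) and CDC42EP1 (7.1, 9.5, 16.5 and 29.5 RPKM). Their distances from CDH2 were 0.150 and 0.152, against a median of 1.17 over the genes compared. These are likenesses over 4 libraries that all genes share.

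CDH2 is the member for which the WT and mutant series can be set side by side. In the mutant table each value of a gene is divided by its highest RPKM among the 4 WT Rep. 2 libraries, so that WT Rep. 2 reaches 1 at its maximum. The authors drew the genes of this table from those they found to respond to Wnt3a, so the presence of CDH2 in it and its rise are not independent. SP5 itself stood at 0.02, 0.02, 0.09 and 1 in WT Rep. 2 and reached 2.54 in dZF1 and 2.61 in dZF2 at 48 h. The deletion leaves the rest of the transcript to be counted, so these values do not check which libraries are mutant.

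The WT series differed from each other in timing, which bears on every comparison with WT Rep. 2. At 24 h SP5 had reached 66.7% of its own highest value in the first WT series and 9% in WT Rep. 2. For EOMES, a T-box factor of the primitive streak, these shares were 78.2% and 5%, and for MIXL1, a homeobox factor of the same cells, 100% and 8%. At 24 h the level of MIXL1 was 0.71 in dZF1 and 3.27 in dZF2, and that of EOMES 0.94 and 1.90, far above WT Rep. 2. Among the 271 genes of the table that rose at least 2-fold in the first WT series by 48 h, the log2 change at 24 h had a median of 0.70 in dZF1 and 0.90 in dZF2, beside 0.19 in WT Rep. 2 and 1.13 in the first WT series. These 271 genes were chosen on the first WT series, which raises its median. WT Rep. 2 was nevertheless below both clones in this median, and whether its slower course plays a part in the clone ratios was not tested beyond the use of the first WT series as a second reference.

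CDH2 in WT Rep. 2 was 0.29, 0.36, 0.45 and 1 over the 4 times. In dZF1 it was 0.38, 0.44, 0.81 and 1.79, and in dZF2 it was 0.37, 0.44, 0.74 and 1.56. Both clones were above WT Rep. 2 at all 4 times, before Wnt3a included, and were within 0.23 of each other at every time. The share of table genes with both clones above WT Rep. 2 was 33%, 36.6%, 51.1% and 44.7% at the 4 times, so at any given time such a position is common in this table. The share of genes so placed at all 4 times was not computed. The ratios of dZF1 and dZF2 share the same WT Rep. 2 library at each time.

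After 0.05 was added to each value, the log2 ratio to WT Rep. 2 was 0.34 for dZF1 and 0.30 for dZF2 at 0 h. At 12 h it was 0.26 for both. At 24 h it was 0.78 and 0.66, and at 48 h it was 0.81 and 0.62. The mean of both clones at 48 h, 0.71, is below 2-fold and lies above the mean ratios of 84.1% of the 497 genes, whose median was 0.05. These include fallen genes. The 271 genes that rose at least 2-fold in the first WT series by 48 h had a median of 0.39, and the 94 that fell as much had -0.67. At 24 h the mean for CDH2 was 0.72, the median of all 497 genes was 0.24 and that of the 271 risen genes was 0.44. A mean of at least 2-fold was reached by 18.3% of the table at 24 h and 8.85% at 48 h, and CDH2 was not among these genes at either time.

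Each series was then compared with its own 0 h library, which allows the first WT series to be included. By 48 h CDH2 had risen 4.71-fold in dZF1 and 4.22-fold in dZF2, and 3.79-fold and 3.45-fold in the first WT series and in WT Rep. 2. On the log2 scale, with values scaled to the WT maximum and 0.05 added, these changes were 2.10, 1.94, 1.74 and 1.63, in the same order. Both clones were above both WT series at this time, as were 15.9% of the genes in the table. At 24 h the order was different, with 1.00 in dZF1 and 0.91 in dZF2 between 0.56 in WT Rep. 2 and 1.25 in the first WT series. The gap of 0.70 between the WT series was wider than that of either from a clone. At 12 h all 4 changes lay between 0.19 and 0.27.

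CDH2 rose in all 4 series. The mean change of the clones minus that of the WT series was -0.02, 0.05 and 0.33 at 12, 24 and 48 h. For CDH2 itself the WT series were 0.12 apart at 48 h and the clones 0.16 apart, both less than 0.33. At 24 h the WT series were 0.70 apart. The order at 48 h depended on the scaling. After division by the median change of the mutant table, dZF1 and dZF2 stood at 1.25 and 1.06. WT Rep. 2 then stood at 0.98 and the first WT series at 0.59. Both clones stayed above both WT series, but the WT gap exceeded the clone minus WT difference. Across the 497 genes, which include those named above that differed in timing, the standard deviation between the WT series was 0.68, 0.87 and 0.73 at 12, 24 and 48 h. It comes from 1 difference a gene, that between the WT series in their changes from their own 0 h libraries. The spread of these differences around their mean was divided by the square root of 2. A shift of equal size in all genes is thus not part of it, whereas a slower course that moves genes by unequal amounts is. With 2 WT series and 2 clones, the smallest p-value of an exact permutation test would be 0.333, so none was run.

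**Figure D3:**
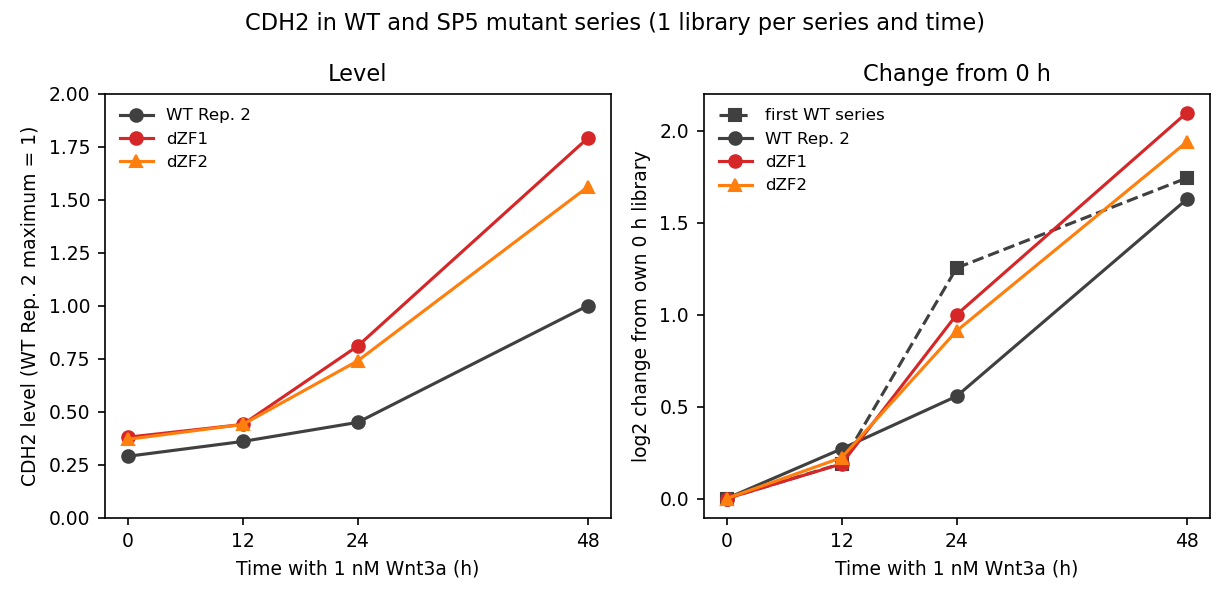
CDH2 against time with 1 nM Wnt3a, as the level relative to the WT Rep. 2 maximum (left, no unit) and as the log2 change from the 0 h library of the same series (right), 1 library per point. On the left both clones lie above WT Rep. 2 throughout and end at 1.79 and 1.56, and on the right the first WT series is the highest at 24 h and both clones are the highest at 48 h.

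Besides CDH2, 22 genes of the 6 lists are in the mutant table, 12 of the 23 in all from the mesenchymal list. At 48 h 17 of the 23 were above WT Rep. 2 in dZF1, against 54.9% of the table, and 14 in dZF2, against 52.9%. Both clones were above it for 12 and below it for 4, beside 44.7% and 36% of all table genes, and the median of the mean log2 ratios was 0.24. Of the 23, 18 had risen at least 2-fold in the first WT series at 48 h, and both clones were above WT Rep. 2 for 12 of these (66.7%) and below it for 0. Among all 271 risen genes of the table the share above was 67.5%, so the risen genes of the lists were placed like the risen genes in general. All 3 that had fallen were below WT Rep. 2 in both clones, as were 87.2% of the 94 fallen genes.

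The highest ratios at 48 h belonged to TAGLN, with log2 ratios of 1.29 in dZF1 and 1.80 in dZF2. FN1 followed with 1.03 and 0.97, then MYL9, a myosin light chain, with 0.76 and 1.23, and GSC with 1.03 and 0.70. By the mean of both clones CDH2 came next. At 0 h the order was different, since CDH2 had positive ratios in both clones while TAGLN, FN1 and MYL9 had negative ones, with means of -0.22, -0.29 and -0.62. CDH2 was not alone in this. At 0 h both clones were above WT Rep. 2 for 7 of the 23 genes and below it for 13. THY1 and CLDN11, with means of 0.78 and 0.56, lay above CDH2 with 0.32. The lowest ratios at 48 h were those of ITGA6, -0.66 and -0.57, and CD24, -0.45 and -0.49, both of which fell in the first WT series. CLDN11 (0.45 and 0.37) and the epithelial genes KRT19 (0.64 and 0.37) and PERP (0.31 and 0.23) were above WT Rep. 2 in both clones, and KRT8 was above it in dZF2 only (-0.07 and 0.13).

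The first WT series and WT Rep. 2 also differed in several of these genes. FN1 had log2 changes of 1.96 in dZF1 and 2.10 in dZF2 at 48 h, which lay between 0.74 in WT Rep. 2 and 2.29 in the first WT series. For TAGLN both clones, with 2.48 and 3.02, were above WT Rep. 2 with 0.99 and the first WT series with 1.92. THY1 had a change of -0.97 in the first WT series and of 0.52 in WT Rep. 2, so these moved in opposite directions, beside -0.33 and -0.94 in the clones.

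**Figure D4:**
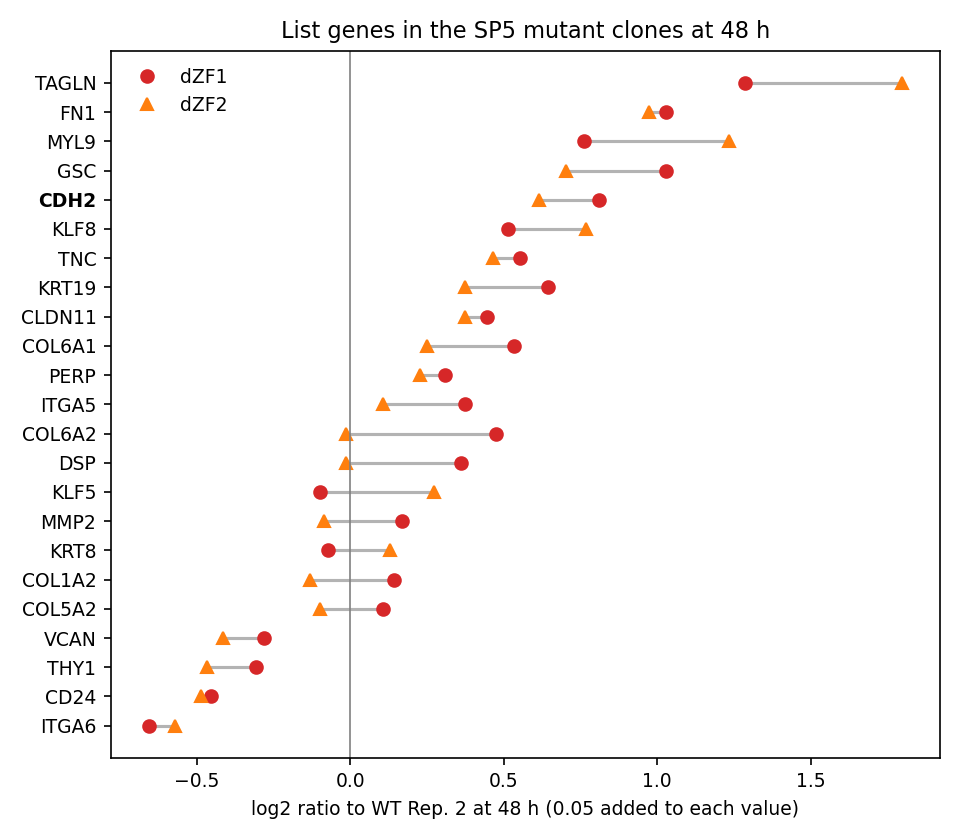
Log2 ratio of each clone to WT Rep. 2 at 48 h, after 0.05 was added to each value, for the 23 genes of the lists that are in the mutant table, ordered by the mean of both clones, with 1 library per point. CDH2 (bold) lies at 0.81 and 0.62, just below TAGLN, FN1, MYL9 and GSC.

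The genes whose levels most resembled CDH2 over the 12 libraries of the mutant table, by the mean absolute log2 difference, were FBN2, DCLK1, GSTO1, MAML3 and MATN3. FBN2, a fibrillin of the matrix, had levels of 0.37, 0.34, 0.32 and 1 in WT Rep. 2, 0.38, 0.41, 0.54 and 1.69 in dZF1, and 0.41, 0.45, 0.91 and 1.44 in dZF2. Its mean difference from CDH2 was 0.17 (Pearson r = 0.95 over 12 libraries). DCLK1, a kinase that binds microtubules, was next at 0.18 (r = 0.98). The distances of the 5 were at most 0.21, against a median of 0.75 over the table. These correlations describe libraries that the genes share and carry no test.

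SP5 ChIP-Seq addressed whether SP5 binds near the members. The peak lists, of 540 and 542 peaks, were called by MACS from what their headers give as the same SP5 library of Wnt3a-treated cells, and differ in their control library, which came from Wnt3a-treated cells for the first and buffer-treated cells for the second. The sample labels go another way: they give H1 cells for both, treated with Wnt3a for 24 h for the first list and without Wnt3a for the second, whereas the headers name the library after H9, another human embryonic stem cell line. Both lists give the same total of ChIP tags, and the peaks nearest CDH1 and EPCAM have the same tag counts in both, 60 and 40. The labels of a treated and an untreated ChIP library thus cannot both hold, and the paper reports no significant SP5 binding in untreated cells. Whether the cells were H1 or H9 could not be settled. The lists are called by their control, and no comparison of cells with and without Wnt3a is drawn from them. The ChIP library held 18641194 tags, and the controls held 20618344 and 19031237. The median false discovery rate (FDR) of the peaks is 39.7% and 69.6% for these controls, so many of the listed peaks are weak. The paper reports a set of SP5 binding events in Wnt3a-treated cells that is larger than either list. How that set relates to these lists was not examined.

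No peak lies within any of the 8 gene bodies, and 7 of the 8 genes have none within 100000 bases of their start site in either list. For CDH2 the nearest summit lies 3914573 bases upstream of the start site in the list with the Wnt3a-treated control and 3637228 bases upstream in that with the buffer-treated control. For CDH1 it lies 1199243 bases upstream in both. The nearest summits of CLDN6 and EPCAM lie 337686 and 438810 bases downstream in both lists. Those of VIM and ZEB2 are 1179847 and 939908 bases away with the Wnt3a-treated control and 3878200 and 2950294 bases away with the other, and that of SNAI2 is 1461732 bases away in both.

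SNAI1 was the 1 member with a peak within 100000 bases, a distance at which 9.14% of 20163 protein-coding genes have 1 in either list. Within 50000 bases the numbers were 0 of 8 members and 5.20% of genes, and within 500000 bases 3 of 8 members and 33.9%. The peak near SNAI1 lies on chromosome 20 from 48661110 to 48661692 (GRCh37, 583 bases), with its summit 61953 bases downstream of the start site. It overlaps no protein-coding gene, and SNAI1 is the protein-coding gene with the nearest start site. With 15 tags it is 7.24-fold enriched over the control. Its score, which grows as the p-value falls, is 52.8, and its FDR is 73.6%. It is listed with the buffer-treated control only, and 29 of the 542 peaks of that list have fewer tags. At an FDR of at most 5%, 0 of 8 members had a peak within 100000 bases.

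The sequence around this summit is shown because it is the only SP5 peak near a member. It was searched on both strands, and matches are in capitals. The letters GGGCGG are the GC box that factors of the SP family are known to bind. The letters GGGAGG stand for a close variant of that box. The letters CAGGTG are the E-box that Snail and ZEB proteins bind. The letters CTTTGAT are a site of the TCF/LEF partners of β-catenin in the nucleus. The 201 bases centred on the summit hold no GC box, no variant of it and no TCF/LEF site, and 1 E-box, read here on the other strand and thus as CACCTG. The peak window is from GRCh37, chr20:48661370-48661570, forward strand.
SNAI1 peak: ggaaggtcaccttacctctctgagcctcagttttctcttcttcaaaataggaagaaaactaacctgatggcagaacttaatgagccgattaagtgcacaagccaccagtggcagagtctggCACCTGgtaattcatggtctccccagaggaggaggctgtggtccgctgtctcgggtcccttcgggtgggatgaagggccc

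Promoters, from 250 bases before to 50 bases after the start site, were matched in RefSeq (GRCh38.p14) for 4 of the 8 members, CDH2, VIM, CLDN6 and ZEB2, and those of 3 listed members are shown so that the promoter of the gene that rose can be read beside those of genes that did not reach 2-fold. The same letters were searched and are in capitals. The windows are chr18:28177081-28177380 on the reverse strand for the upstream start of CDH2, chr10:17227991-17228290 on the forward strand for VIM and chr16:3018134-3018433 on the reverse strand for CLDN6. Each is written 5′ to 3′ on the strand of its gene.
CDH2: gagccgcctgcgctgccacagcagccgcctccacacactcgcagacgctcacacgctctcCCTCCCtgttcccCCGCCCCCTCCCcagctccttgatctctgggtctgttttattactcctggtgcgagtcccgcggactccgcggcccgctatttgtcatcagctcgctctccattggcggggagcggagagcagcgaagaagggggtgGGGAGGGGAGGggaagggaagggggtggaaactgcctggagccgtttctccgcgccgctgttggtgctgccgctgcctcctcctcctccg
VIM: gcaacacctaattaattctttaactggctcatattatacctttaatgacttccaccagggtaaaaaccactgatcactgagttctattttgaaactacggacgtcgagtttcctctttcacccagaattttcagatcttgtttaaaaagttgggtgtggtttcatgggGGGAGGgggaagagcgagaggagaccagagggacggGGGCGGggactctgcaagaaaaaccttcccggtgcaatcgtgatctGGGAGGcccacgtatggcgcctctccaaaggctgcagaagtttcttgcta
CLDN6: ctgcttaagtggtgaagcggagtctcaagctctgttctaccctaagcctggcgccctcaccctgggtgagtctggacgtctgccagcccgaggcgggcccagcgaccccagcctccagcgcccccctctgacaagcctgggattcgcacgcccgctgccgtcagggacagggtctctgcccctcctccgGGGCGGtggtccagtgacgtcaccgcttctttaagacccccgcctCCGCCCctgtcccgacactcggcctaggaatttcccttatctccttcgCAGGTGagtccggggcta

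The CDH2 promoter held 1 GC box and 4 of its variant, some of which overlap or adjoin, and that of a second RefSeq start of CDH2 held none of the 4 motifs. The VIM promoter held 1 GC box and 2 of the variant, and that of CLDN6 held 2 GC boxes and none of the variant. The E-box was found once in the CLDN6 promoter and not in those of CDH2 and VIM, and the TCF/LEF site in none of the 4 matched genes. Of 35116 promoters, 45% hold the GC box, 49.3% its variant, 20.6% the E-box and 2.62% the TCF/LEF site, so the GC-rich letters at CDH2 are common ones. A match describes the letters and is not a bound site. No SP5 peak covers any of these promoters.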

How the data were processed

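RNA-Seq of H1 cells was taken as deposited. Per the paper's methods, RNA depleted of ribosomal RNA was sequenced, reads were aligned to hg19 with TopHat, and RPKM were calculated with Cuffdiff; the TopHat version is not given in the sources used here. For the first WT series the deposited values are RPKM of 10975 genes with 1 decimal, and the same values as fractions of each maximum, which were not used. For the mutant experiment the deposited values, with 2 decimals, are a fraction of the maximum RPKM for WT Rep. 2 and, for dZF1 and dZF2, a ratio over that maximum, for 497 genes. Rounding makes values near 0 coarse, 96 genes are listed at 0 in a library of the first WT series, and no table holds read counts, so no interval is given.

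The deposited ChIP-Seq lists, from MACS 1.4.2, hold a tag count for every peak with its score, its fold enrichment and its FDR in percent. The submitters' processing notes also name Bowtie 0.12.7 and SAMtools 0.1.12a.

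Samples were grouped by their labels, and 0 columns were left unmapped. Log2 changes were computed after adding 1 to RPKM or 0.05 to values of the mutant table, and levels were compared only within a table. Peak summits were compared with GENCODE start sites on GRCh37. The members and lists were chosen with earlier results of these data known. Named genes are the members, SP5, list genes changed 2-fold at 48 h or in the mutant table (at most 6 a list and direction), the genes most like CDH2 (1 of which is not reported here) and the nearest peaks; others, such as CDH3, CDH11, catenins, TJP1, ESRP1, GRHL2, keratins and markers, were named after their values were seen. Python 3.11.15 with numpy 2.4.6, pandas 2.3.3 and matplotlib 3.10.9 was used, and the steps were tested on simulated data. Alternatives were other pseudocounts, scalings, filters, references and distances.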

Additional observations from a re-analysis of the deposited data

How the results depend on the processing

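Over 55 results and 195 alternatives, 183 values stayed within the spread of the WT series or, for counts, within 1.5 times, 12 moved beyond that, and 0 called values changed sign. That spread, 0.68 to 0.87 on the log2 scale, is larger than many of the values, and a changed sign was counted only for log2 values of at least 1. A smaller value could change sign and stay within the spread, as the clone ratio of CDH2 at 12 h did, from 0.26 to -0.06. The tally therefore says little about small values. With a pseudocount of 5, the EMT transcription factors had 1 higher and 0 lower gene at 48 h, the tight junction list 1 lower and the mesenchymal list 0 lower, and a filter of 10 on the highest RPKM left 1 lower in the mesenchymal list; fewer low genes pass under either setting. CDH2 stayed the 1 member changed at 24 and 48 h under the 5 settings tried on the RPKM table. Every listed member passes the filters among these settings, so only the pseudocounts and the scaling could have altered this. Divided by the median change of the mutant table, whose genes were selected for changing, the log2 changes of CDH2 at 48 h were 1.25 in dZF1, 1.06 in dZF2, 0.98 in WT Rep. 2 and 0.59 in the first WT series, the last 2 below 2-fold. On the scale of that table the first WT series at 24 h was also below 2-fold, with 0.61 under this setting and 0.95 with a pseudocount of 0.2. The mean clone ratio of CDH2 at 24 h, 0.72 against WT Rep. 2, was -0.30 when changes from 0 h were set against the first WT series, and 0.40 against those of WT Rep. 2. At 48 h the same settings gave 0.28 and 0.39, and at 12 h 0.02 and -0.06. With 1 clone left out in turn the ratio was 0.62 to 0.81 at 48 h and 0.66 to 0.78 at 24 h. The members with a peak numbered 0 within 50000 bases or at an FDR of at most 5%, and 3 within 500000 bases. Of the 23 list genes, 8 had both clones above WT at 48 h by change from 0 h against the first WT series, and 14 against WT Rep. 2, settings chosen after seeing the data. No paired analysis was possible because no result comes from a test, with 1 library per series and time; changes were taken from the 0 h library of the same series. The unknown depth limits low genes such as SNAI1 most.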
